A study of Mus musculus with 4 samples.

Results

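Genes that mark mesoderm, endoderm and the extraembryonic lineages were followed in E14 cells, a mouse embryonic stem cell (mESC) line, with and without the H3K36me3 reader Npac. The list holds 43 genes, chosen by name as known lineage genes, out of 56748 genes in the deposited table, and every name was found there. The choice was made with earlier results of these data known. RNA-seq was performed on 4 libraries. WT cells gave WT1 and WT2, and each of 2 Npac KO clones gave 1 library (KO1 and KO2). The clones were made with CRISPR/Cas9 and guides against exon 3 of the gene. All cells were grown without feeders in serum and leukemia inhibitory factor. The comparison concerns cultures kept in this medium, and the share of differentiated cells in them was not measured here. Neither the labels nor the methods say whether WT1 and WT2 were separate cultures. The p-values set the difference between genotypes against the spread between libraries of a genotype. For KO that spread is between 2 clones, and for WT it may be between repeats of 1 culture. In RNA from bulk cultures, a change in the number of cells that use a gene and a change in RNA per cell cannot be told apart.

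During gastrulation, epiblast cells pass through the primitive streak and become mesoderm or definitive endoderm, under the control of transcription factors such as Eomes, Mixl1 and Mesp1. Primitive endoderm, which forms the visceral and parietal endoderm of the yolk sac, is set up earlier by Gata6, Gata4 and the Sox factors Sox17 and Sox7, and the trophoblast is set up by Cdx2, Gata3 and Tfap2c. Undifferentiated mESCs keep most of these genes nearly silent, and a mESC culture can hold a few cells that have begun to use them.

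Of the 43 genes, 33 had enough reads to be compared and 10 did not. Tested with edgeR's quasi-likelihood test over 18157 genes, counting as changed a gene whose Benjamini-Hochberg adjusted p was below 0.05 and whose fold change exceeded 1.5, 5 lineage genes were up-regulated in Npac KO cells and 1 was down-regulated. The up-regulated genes were Gsc, Hand2, Tbx20, Tfap2c and Krt18, and the down-regulated gene was Sox7. They make up 15.2% and 3.03% of the lineage genes tested, where 11.0% and 10.7% of all genes tested were called in the same directions. In either direction 6 of 33 lineage genes were called (18.2%), against 21.7% of all genes. Most of the lineage genes were scarce. Among the 23 with a mean under 100 reads 3 were called, where 18.8% of all such genes were called. The median log2 fold change (KO minus WT) was 0.48 over the 33 genes and 0.0015 over all genes tested. It was 0.27 without WT1 and 0.88 without WT2. Single libraries were compared on log2 CPM (defined below) with 0.5 added, which shrinks the differences of scarce genes. On that scale the median difference between WT2 and WT1 over the same genes was 0.50. KO1 lay above the WT mean by a median of 0.28 and KO2 by 0.65, so the WT difference fell between those of the KO libraries. The fitted median of 0.48 is on another scale, and whether it exceeded the WT difference was not tested. Both KO libraries lay above both WT libraries in 17 of the 33 genes (51.5%) and below them in 4 (12.1%), where these shares were 33.2% and 32.5% among all genes.

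The data come from libraries of 15850805 to 16965120 reads, so that 1 read was worth 0.0572 to 0.0655 CPM (read counts scaled to a common library size, corrected by the TMM method). Glyr1, the gene symbol of Npac, fell from 3961 and 3115 reads in WT cells to 744 and 888 in Npac KO cells. Stem cell markers were read in both genotypes. Each of 9 stem cell markers had a mean of at least 128 CPM in either genotype, and 1 of them, Zfp42, was called lower in Npac KO cells (821 against 132 CPM, log2 fold change -2.64). Pou5f1, Sox2 and Tdgf1 also had lower values in KO1 and KO2 than in WT1 and WT2, without passing. Dppa5a and Utf1 had higher values in KO1 and KO2 than in WT1 and WT2, also without passing. In Nanog, Sall4 and Fbxo15 the genotypes overlapped, so the markers did not share a direction. Of 7 fibroblast markers, Col3a1 and Dcn had no reads, Lum and Postn had at most 1 read and Col1a1 was called higher in Npac KO cells (7.59 against 18.6 CPM). Col1a2 went from 0.241 to 1.04 CPM (adjusted p = 0.0515 by edgeR) and Thy1 from 39.5 to 28.2 CPM (adjusted p = 0.231 by edgeR), so that members differed in direction. Thy1 made up most of the summed level of the 7, which was 35.8 and 59.1 CPM in WT cells and 45.1 and 50.7 CPM in Npac KO cells. Their part in the results was not tested. Genes on chromosomes 8 and 11 were shifted upward as a group in both KO libraries, by a median of 0.45 to 0.49 on the log2 scale. Hand1 and Pecam1 lie on chromosome 11 and Hand2 on chromosome 8, and for these a value with the chromosome's median removed is given as well. The fibroblast marker Col1a1 also lies on chromosome 11, and no such value is given for it.

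**Figure D1:**
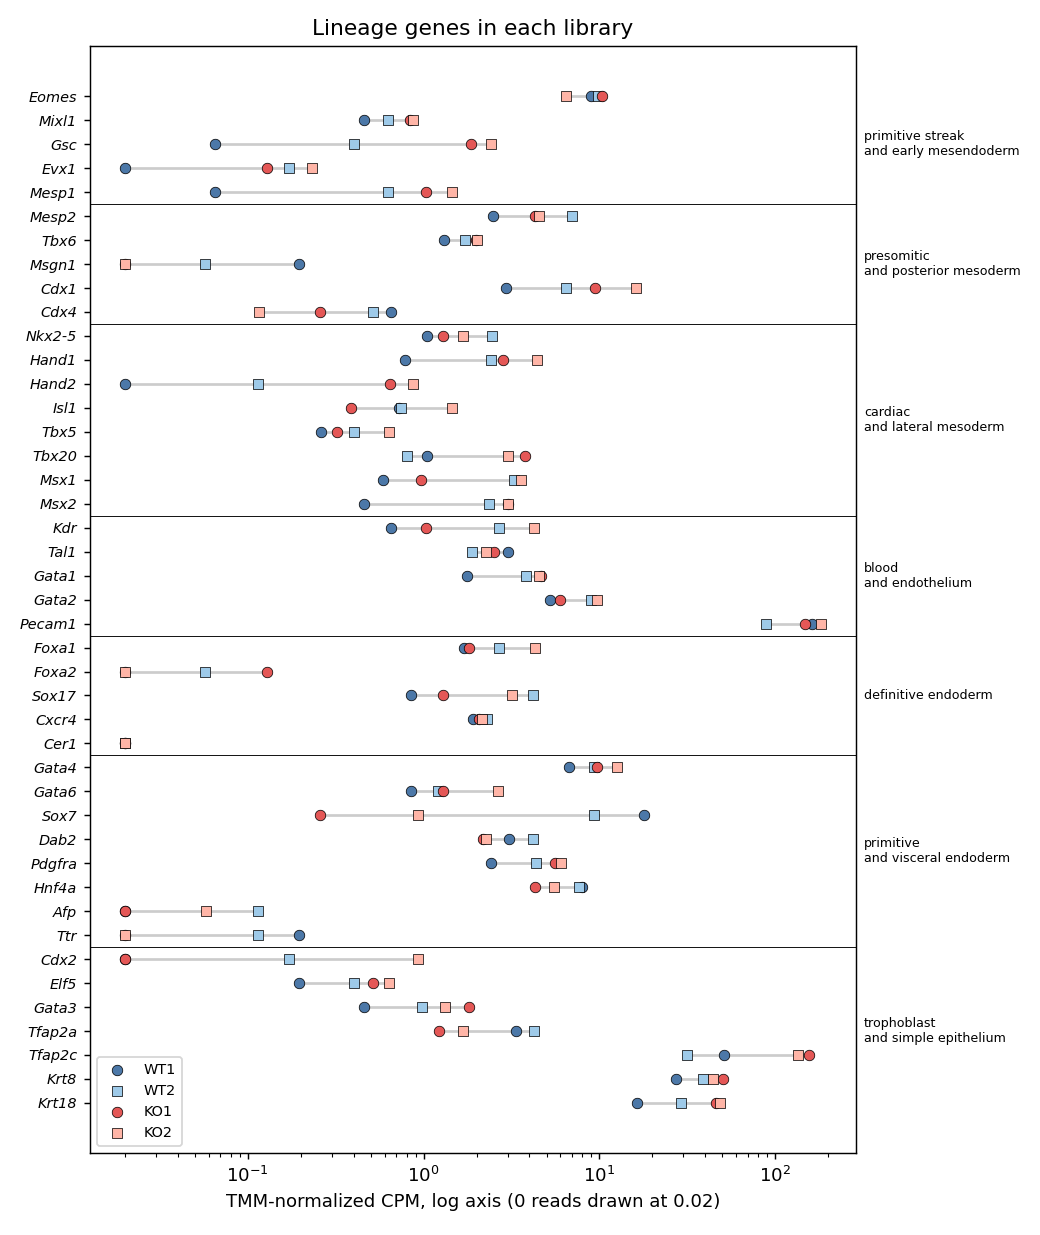
TMM-normalized CPM of all 43 lineage genes in the WT1, WT2, KO1 and KO2 libraries on a log axis, grouped by lineage; grey lines span the 4 libraries and 0 reads are drawn at 0.02. Sox7 is the gene in which both KO points lie far to the left of both WT points, and Gsc, Tbx20, Tfap2c and Krt18 have both KO points to the right.

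The promoters of the genes that changed are shown where the RefSeq table (GRCm38.p6) holds them, and they were searched for the sequence bound by AP-2 factors, the family of Tfap2c. Gsc, Hand2 and Tbx20 also encode transcription factors, and their motifs were not searched. The table held 32 of the 43 genes and 4 of the 6 that passed the thresholds. The 250 bases before the annotated start are printed 5′ to 3′ on the strand of the gene, and capitals mark matches to GCCNNNGGC, the AP-2 consensus, which reads the same on both strands. Gsc is at chr12:104473237-104473486 on the minus strand, Hand2 at chr8:57320733-57320982 on the plus strand, Tbx20 at chr9:24774304-24774553 on the minus strand, and Krt18 at chr15:102027966-102028215 on the plus strand.
Gsc: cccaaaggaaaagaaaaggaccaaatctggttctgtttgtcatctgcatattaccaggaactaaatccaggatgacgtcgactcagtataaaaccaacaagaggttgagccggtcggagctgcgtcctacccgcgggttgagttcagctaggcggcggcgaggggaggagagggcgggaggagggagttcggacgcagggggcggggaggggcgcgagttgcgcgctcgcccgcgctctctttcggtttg
Hand2: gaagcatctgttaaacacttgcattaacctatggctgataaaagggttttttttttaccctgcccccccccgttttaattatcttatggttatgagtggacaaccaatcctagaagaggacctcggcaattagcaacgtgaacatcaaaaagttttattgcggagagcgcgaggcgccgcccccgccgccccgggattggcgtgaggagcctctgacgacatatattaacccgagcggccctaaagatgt
Tbx20: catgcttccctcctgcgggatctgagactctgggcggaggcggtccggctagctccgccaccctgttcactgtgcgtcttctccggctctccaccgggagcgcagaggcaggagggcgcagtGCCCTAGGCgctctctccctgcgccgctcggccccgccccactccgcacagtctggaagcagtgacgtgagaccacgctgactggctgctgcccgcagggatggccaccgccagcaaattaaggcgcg
Krt18: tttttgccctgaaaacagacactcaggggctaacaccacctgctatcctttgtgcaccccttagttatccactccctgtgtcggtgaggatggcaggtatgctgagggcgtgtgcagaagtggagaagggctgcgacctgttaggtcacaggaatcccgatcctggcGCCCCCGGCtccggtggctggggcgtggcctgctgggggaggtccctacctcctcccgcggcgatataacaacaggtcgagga

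Krt18 and Tbx20 each held 1 match, beginning at position -83 and -128 from the start, and Gsc and Hand2 held none. In windows that add the first 50 bases of the transcript, 16.6% of all 32851 promoters in the table held the motif, as did 10 of the 40 windows that belong to lineage genes (25.0%). A match describes the letters only, and binding was not measured.

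The trophoblast and simple epithelium genes had the highest levels among those that rose. Tfap2c, which encodes a transcription factor of trophoblast, germ cells and naive pluripotent cells, had 775 and 553 reads in WT1 and WT2 and 2412 and 2321 in KO1 and KO2. The KO libraries were clear of the WT libraries by a wide margin. Its level rose from 41.2 ± 13.5 to 145 ± 14.9 CPM (SD, n = 2 each), a log2 fold change of 1.81 (standard error, SE, 0.25, adjusted p = 0.00445 by edgeR), and it was called with any library left out. Tfap2c (ENSMUSG00000028640) lies on chromosome 2 from 172391513 to 172400542 in the coordinates of the deposited table. Krt18 (ENSMUSG00000023043, chromosome 15 from 101936615 to 101940462), the type I keratin of simple epithelia, had 249 and 508 reads in WT cells and 716 and 836 in Npac KO cells. Its log2 fold change was 1.05 (SE 0.29, adjusted p = 0.037 by edgeR), which became 0.67 when WT1 was left out and 1.53 when WT2 was. Without KO1 or without KO2, Krt18 no longer passed (adjusted p = 0.0877 and 0.124 by edgeR).

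Krt8 (ENSMUSG00000049382), the type II keratin with which Krt18 forms filaments and its close neighbour on chromosome 15, had 414 and 674 reads in WT cells and 781 and 763 in Npac KO cells. The KO values exceeded both WT values, with a log2 fold change of 0.52 that did not pass (SE 0.23, adjusted p = 0.143 by edgeR). Counted per kilobase of gene length, which allows genes to be compared, the keratins stood at 16.8 (Krt8) and 15.8 (Krt18) CPM per kb in WT cells and at 24.1 and 32.8 CPM per kb in Npac KO cells. Tfap2c stood at 11.2 and 39.3 CPM per kb. Its relative Tfap2a, a factor of surface ectoderm, neural crest and trophoblast, was the lower in Npac KO cells, with 51 and 74 reads in WT cells and 19 and 29 in Npac KO cells. Its log2 fold change was -1.38 and missed the threshold (SE 0.46, adjusted p = 0.0671 by edgeR); under the 6 other ways of testing, the adjusted p lay between 0.0251 and 0.102 and 3 passed. The overlapping gene Gm47061 had 3 to 10 reads. Gata3, which acts with Cdx2 in the trophectoderm, had 7 and 17 reads in WT cells and 28 and 23 in Npac KO cells, a log2 fold change of 1.11 (adjusted p = 0.208 by edgeR).

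**Figure D2:**
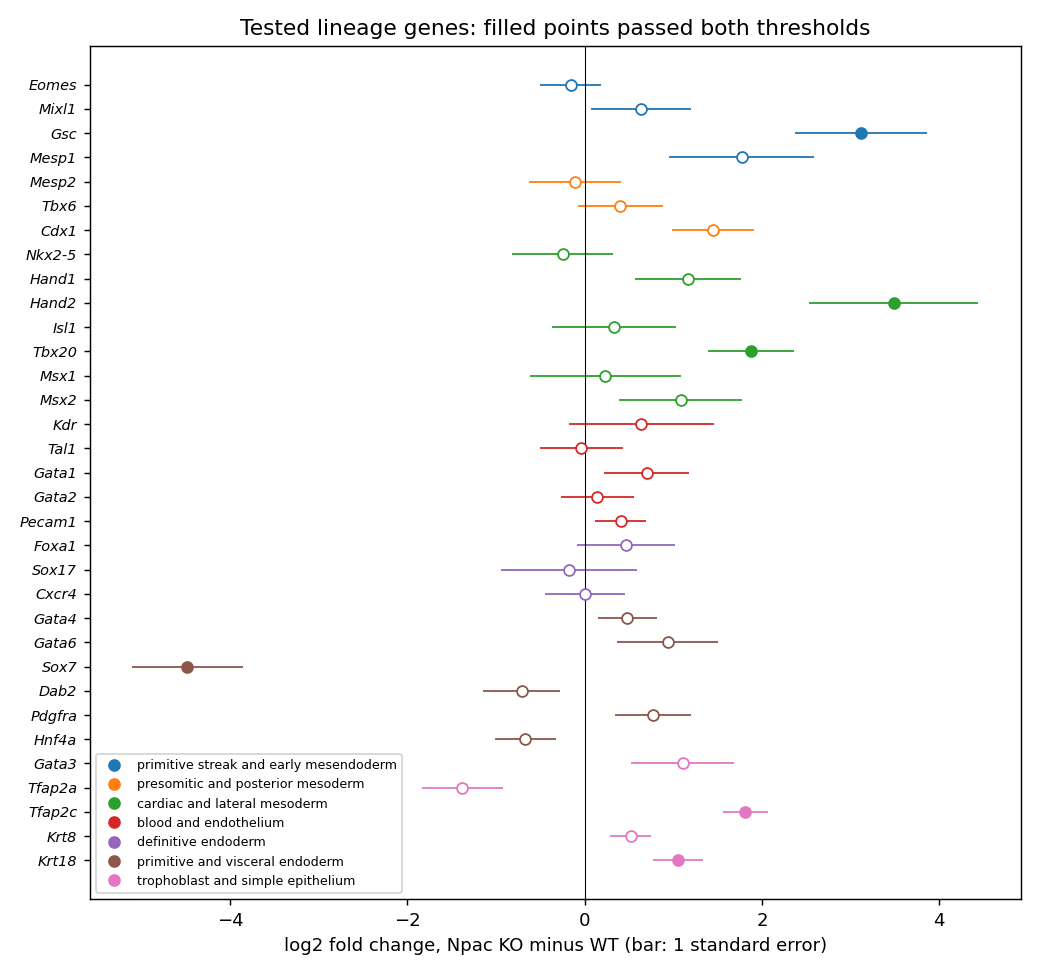
Log2 fold change (Npac KO minus WT) of the 33 tested lineage genes with bars of 1 standard error, coloured by lineage; filled points passed both thresholds. The 6 filled points are Gsc, Hand2, Tbx20, Tfap2c and Krt18 to the right of 0 and Sox7 to the left, at -4.48.

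Cdx2, the homeobox factor that defines trophectoderm, had 0 and 3 reads in WT cells and 0 and 16 in Npac KO cells. All of its reads in Npac KO cells were in the KO2 library, so the groups overlapped. The KO to WT ratio of its summed reads was 5.32, with a counting interval of 1.52 to 28.5 that leaves out the spread between KO1 and KO2. Elf5, a factor of trophoblast stem cells, had 3, 7, 8 and 11 reads in WT1, WT2, KO1 and KO2 and was not tested either.

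In the primitive and visceral endoderm group the largest log2 fold change of the 33 tested genes was found, and it was a fall. Sox7 (ENSMUSG00000063060, chromosome 14 from 64181122 to 64188181), an F-group Sox factor of parietal endoderm and endothelium, had 273 reads in WT1 and 162 in WT2 but 4 in KO1 and 16 in KO2. Its level fell from 13.6 ± 6.08 to 0.591 ± 0.472 CPM (SD, n = 2 each), with a log2 fold change of -4.48 (SE 0.62, adjusted p = 0.00434 by edgeR). Per kilobase, Sox7 went from 4.11 to 0.179 CPM per kb, from above Gata4 (2.04 CPM per kb in WT cells) to below Gata6 (0.303 CPM per kb in Npac KO cells). Sox7 was called with any library left out, at log2 fold changes between -5.66 and -3.87. No other gene in the deposited table overlaps it.

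The factors that act with Sox7 in primitive endoderm did not follow it. Gata4 had 102 and 162 reads in WT cells and 150 and 219 in Npac KO cells, a log2 fold change of 0.48 (adjusted p = 0.326 by edgeR). Gata6 had 13 and 21 reads in WT cells and 20 and 46 in Npac KO cells, a log2 fold change of 0.94 (adjusted p = 0.269 by edgeR). Pdgfra, the receptor that marks primitive endoderm and later mesoderm, had 37 and 76 reads in WT cells and 87 and 104 in Npac KO cells (log2 fold change 0.77, adjusted p = 0.224 by edgeR). In each of these 3 genes the KO values exceeded both WT values, and none was called. In Dab2 and Hnf4a the KO values were the lower ones. Dab2, an endocytic adaptor of the visceral endoderm, had 47 and 73 reads in WT cells and 34 and 39 in Npac KO cells (log2 fold change -0.71, adjusted p = 0.271 by edgeR). Hnf4a, a factor of visceral endoderm and liver, had 122 and 133 reads in WT cells and 67 and 95 in Npac KO cells (log2 fold change -0.67, adjusted p = 0.201 by edgeR). The secreted products of mature visceral endoderm were close to absent in both genotypes. Afp had at most 2 reads in any library, and Ttr had 3 and 2 reads in WT cells and none in Npac KO cells.

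Among primitive streak genes, Gsc was called. Gsc (goosecoid; ENSMUSG00000021095, chromosome 12 from 104437468 to 104439589), a homeobox gene of the anterior streak and organizer, had 1 and 7 reads in WT cells and 29 and 42 in Npac KO cells. The genotypes were far apart, although WT cells were close to the limit of detection and only the KO libraries brought Gsc into the test. WT cells had 0.233 ± 0.237 CPM and Npac KO cells had 2.15 ± 0.397 CPM (SD, n = 2 each), a log2 fold change of 3.12 (SE 0.74, adjusted p = 0.0239 by edgeR). Without KO2 the log2 fold change was 2.94 and did not pass (adjusted p = 0.124 by edgeR), and its range over the 4 fits that each lacked a library was 2.37 to 4.88.

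The other streak genes did not pass. Mesp1, a factor of the earliest cardiac mesoderm, had 1 and 11 reads in WT cells and 16 and 25 in Npac KO cells, a log2 fold change of 1.77 (SE 0.82, adjusted p = 0.157 by edgeR). The WT libraries were far apart, and the value was 0.94 without WT1 and 4.09 without WT2. Mixl1, a homeobox factor of the streak, had 7, 11, 13 and 15 reads in WT1, WT2, KO1 and KO2 (log2 fold change 0.63, adjusted p = 0.454 by edgeR). Eomes, a T-box factor of streak and trophoblast, was the most abundant of the streak genes, at 2.26 CPM per kb in WT cells and 2.03 CPM per kb in Npac KO cells, and its libraries overlapped (log2 fold change -0.16, adjusted p = 0.775 by edgeR). Evx1, a homeobox gene of the posterior streak, had at most 4 reads and was not tested.

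Presomitic and posterior mesoderm genes held no call. Cdx1, a homeobox gene of the posterior embryo, came closest, with 45 and 112 reads in WT cells and 146 and 280 in Npac KO cells. The KO values exceeded both WT values, with a log2 fold change of 1.44 (SE 0.46, adjusted p = 0.0601 by edgeR), and 3 of 6 other ways of testing called it, including DESeq2 (adjusted p = 0.0148). Mesp2, which sets the segment borders of somites, had 38 and 122 reads in WT cells with the KO libraries between them at 67 and 78 (log2 fold change -0.11, adjusted p = 0.903 by edgeR). Tbx6, a T-box factor of presomitic mesoderm, had 20, 30, 31 and 35 reads in WT1, WT2, KO1 and KO2 (log2 fold change 0.40, adjusted p = 0.575 by edgeR). Msgn1, a presomitic bHLH factor, had 3 and 1 reads in WT cells and none in Npac KO cells. Cdx4, a posterior homeobox gene on chromosome X, had 10 and 9 reads in WT cells and 4 and 2 in Npac KO cells. The KO to WT ratio of its summed reads was 0.315, with a 95% interval of 0.103 to 0.82 that covers counting error only, and Cdx4 did not pass when every gene with a read was tested (adjusted p = 0.328 by edgeR).

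Of 8 cardiac and lateral mesoderm genes, 7 were tested and 2 were up-regulated. Tbx20 (ENSMUSG00000031965, chromosome 9 from 24629434 to 24685599), a T-box factor of the developing heart, had 16 and 14 reads in WT cells and 59 and 52 in Npac KO cells. Replicates agreed closely in both genotypes, at 0.924 ± 0.174 and 3.40 ± 0.56 CPM (SD, n = 2 each), and the log2 fold change was 1.87 (SE 0.48, adjusted p = 0.0315 by edgeR). With KO1 left out the adjusted p was 0.254 and with KO2 left out 0.126, while the log2 fold change stayed between 1.69 and 2.05.

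Hand2 (ENSMUSG00000038193, chromosome 8 from 57774018 to 57777668), a bHLH factor of heart and limb, was at the edge of detection in WT cells, with 0 and 2 reads, and had 10 and 15 reads in Npac KO cells. The KO to WT ratio of the summed reads was 12.5, with a 95% interval of 3.11 to 109 from counting error alone. Only the KO libraries had enough reads to bring Hand2 into the test, and the interval does not allow for that. Hand2 passed in edgeR (adjusted p = 0.0376) but not in DESeq2 (adjusted p = 0.135), and it did not pass with the median of chromosome 8 removed (adjusted p = 0.0665 by edgeR). The fitted log2 fold change was 3.49 in the first of these tests, 3.67 in DESeq2 and 3.03 with the chromosome's median removed. With a library left out, Hand2 had log2 fold changes from 2.62 to 6.62. It was called in 1 of the 3 fits without a library that could test it. The antisense gene Hand2os1, which overlaps Hand2, had no reads in WT cells and 4 and 7 in Npac KO cells. Whether strand was used in the counting is not given in the sources used here, so reads of these genes cannot be told apart, and the same holds for the antisense genes that overlap Evx1, Gata6 and Hnf4a.

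Hand1, the related bHLH factor of lateral mesoderm and trophoblast giant cells, had 12 and 42 reads in WT cells and 44 and 76 in Npac KO cells, a log2 fold change of 1.17 (SE 0.60, adjusted p = 0.197 by edgeR), or 0.71 with the median of chromosome 11 removed. Msx2, a homeobox target of BMP signalling, had 7 and 41 reads in WT cells and 47 and 52 in Npac KO cells (log2 fold change 1.08, adjusted p = 0.29 by edgeR). Its KO libraries were close together while its WT libraries differed 5.12-fold in CPM. Its relative Msx1 had its higher value in the second library of both genotypes, with 9 and 57 reads in WT cells and 15 and 62 in Npac KO cells (log2 fold change 0.23, adjusted p = 0.868 by edgeR). Nkx2-5, a homeobox factor of heart progenitors, had 16, 43, 20 and 29 reads in WT1, WT2, KO1 and KO2, and Isl1, a LIM homeobox factor of the second heart field, had 11, 13, 6 and 25. Both overlapped between genotypes, at log2 fold changes of -0.25 and 0.33. Tbx5, which patterns heart and forelimb, had at most 11 reads and was not tested.

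No blood or endothelium gene was called. Pecam1, an adhesion molecule of endothelium that mESCs also carry, was the most abundant of the list in WT cells, at 20.1 CPM per kb. It had 2458 and 1554 reads in WT cells and 2306 and 3158 in Npac KO cells, which overlap, and its log2 fold change was 0.41 (adjusted p = 0.336 by edgeR), or -0.06 with the median of chromosome 11 removed. Gata1, the erythroid factor, had 27 and 67 reads in WT cells and 72 and 78 in Npac KO cells (log2 fold change 0.70, adjusted p = 0.324 by edgeR). Gata2, a factor of blood stem cells and endothelium, had 80 and 157 reads in WT cells and 93 and 168 in Npac KO cells (log2 fold change 0.14, adjusted p = 0.834 by edgeR). Kdr, the VEGF receptor of early endothelium, had 10 and 47 reads in WT cells and 16 and 73 in Npac KO cells (log2 fold change 0.64, adjusted p = 0.606 by edgeR). Tal1, a bHLH factor of blood, had 46, 33, 39 and 39 reads in WT1, WT2, KO1 and KO2, and its log2 fold change was -0.04 (adjusted p = 0.964 by edgeR).

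Definitive endoderm genes showed no separation of the genotypes. Sox17, the F-group Sox factor of endoderm, had 13 and 73 reads in WT cells and 20 and 55 in Npac KO cells (log2 fold change -0.18, adjusted p = 0.891 by edgeR). It was lower in the first library and higher in the second in both genotypes. Foxa1, a forkhead factor of endoderm, had 26 and 47 reads in WT cells and 28 and 74 in Npac KO cells (log2 fold change 0.47, adjusted p = 0.577 by edgeR). Cxcr4, the chemokine receptor used to sort definitive endoderm, had 29, 40, 32 and 37 reads in WT1, WT2, KO1 and KO2 (adjusted p = 0.998 by edgeR). Foxa2, the forkhead factor that specifies endoderm, had at most 2 reads in any library. Cer1, a secreted inhibitor made by anterior endoderm, had 0 reads in all 4 libraries, which allows up to 0.172 to 0.196 CPM per library, the value of 3 reads.

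Too few reads for a test were found in Evx1, Msgn1, Cdx4, Tbx5, Foxa2, Cer1, Afp, Ttr, Cdx2 and Elf5. None of the 10 had more than 16 reads in any library, and 5 of them had 3 reads or fewer in every library. When all genes with at least 1 read were tested, the 9 of them with reads had adjusted p values between 0.215 and 0.861 by edgeR. None of these passed. The counting interval of the KO to WT ratio, which leaves out the spread between libraries, excluded 1 for Cdx4 and Cdx2.

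The libraries of a genotype differed from each other in these genes. WT1 was below WT2 in 27 of the 33 tested genes (81.8%), where 50.7% of all genes tested had this order. Among the tested genes with a mean under 100 reads it was 21 of 23, against 57.7% of all such genes. KO1 was below KO2 in 25 of 33 (75.8%), against 50.5% of all genes. WT2 had at least 2-fold the CPM of WT1 in 13 lineage genes, and WT1 had 2-fold that of WT2 in none. KO2 had at least 2-fold the CPM of KO1 in 7 genes, among them Sox7, Isl1, Kdr, Msx1, Sox17, Foxa1 and Gata6. The median absolute log2 difference between WT1 and WT2 was 0.67 over the tested lineage genes and 0.35 over all genes, and between KO1 and KO2 it was 0.31 and 0.21. The number of up-regulated lineage genes, 5 with all libraries, was 14 without WT2, 6 without WT1, 3 without KO1 and 1 without KO2. The number over all genes moved in the same order, from 1999 with all libraries to 3571, 2773, 851 and 826.

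**Figure D3:**
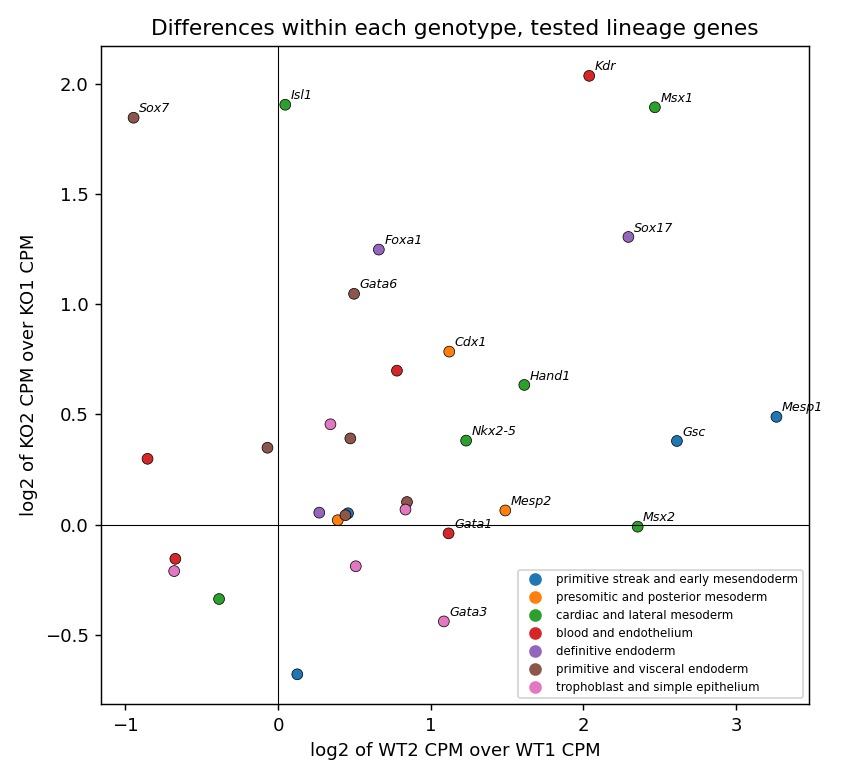
Log2 of the WT2 to WT1 CPM ratio (horizontal) against log2 of the KO2 to KO1 CPM ratio (vertical) for the tested lineage genes, coloured by lineage; Hand2, with 0 reads in WT1, is not drawn, and names mark genes with a 2-fold difference in either genotype. Most points lie to the right of 0 and above 0, and Kdr, Msx1 and Sox17 are more than 2-fold apart in both genotypes.

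A further 82 genes of the same lineages were read in the same fit, of which 64 were tested. Higher levels in Npac KO cells were called for 9 of them (14.1%) and lower levels for 4 (6.25%). Together these are 20.3% of the related genes tested, where 21.7% of all genes were called. Among 16 tested streak and mesoderm genes the only call was Nodal, the signal that starts the streak, with 650 and 568 reads in WT cells and 1066 and 1296 in Npac KO cells (log2 fold change 0.93, adjusted p = 0.0187 by edgeR). Nodal did not pass without KO1 (adjusted p = 0.081 by edgeR) or without KO2 (adjusted p = 0.141 by edgeR). Brachyury (T), a T-box factor of the streak, had 9 and 15 reads in WT cells and 21 in each KO library (log2 fold change 0.81, adjusted p = 0.309 by edgeR); it and the genes at or under 50 reads named below were chosen after their values were seen.

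Among 9 tested heart and muscle genes, Myh6 and Myh7 passed as higher and Smarcd3 as lower. Myh6, a cardiac myosin heavy chain, had 32 and 83 reads in WT cells and 163 and 240 in Npac KO cells (log2 fold change 1.82, adjusted p = 0.0265 by edgeR). Its neighbour Myh7, the other cardiac heavy chain, had 0 and 3 reads in WT cells and 12 and 16 in Npac KO cells. The ratio was 9.30 with a counting interval of 2.87 to 47.8 (adjusted p = 0.049 by edgeR). Only the KO libraries brought Myh7 into the test, and the interval does not allow for that. Myh7 did not pass in DESeq2 (adjusted p = 0.146), with upper-quartile normalization (adjusted p = 0.0509 by edgeR) or without WT1, KO1 or KO2 (adjusted p = 0.132, 0.195 and 0.265 by edgeR), and Myh6 did not pass without KO2 (adjusted p = 0.113 by edgeR). The genes are similar in sequence, and the counting could have split reads between them. Myh6 is overlapped by 2 other genes and Myh7 by 5, among them Mhrt, all with a mean under 50 reads. As for Hand2, it is not given whether strand was used to tell such reads apart. Smarcd3, a chromatin remodelling subunit of the heart, had 276 and 241 reads in WT cells and 98 and 134 in Npac KO cells (log2 fold change -1.18, adjusted p = 0.0319 by edgeR). It overlaps Chpf2, whose reads were 267 and 197 in WT cells and 98 and 96 in Npac KO cells, so its value is uncertain, and it did not pass without KO1 or without KO2 (adjusted p = 0.238 and 0.127 by edgeR).

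Of 7 tested blood and endothelium genes, Etv2 was called. Etv2, the ETS factor that starts the blood and endothelial lineages, had 2 and 3 reads in WT cells and 43 in each KO library. Only the KO libraries brought Etv2 into the test, and its counting interval does not allow for that. The KO to WT ratio of its summed reads was 17.1, with a counting interval of 7.07 to 54.1 (adjusted p = 0.00577 by edgeR), and it was called with any library left out. The 10 tested genes of definitive and visceral endoderm held no call.

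The parietal endoderm and basement membrane group was split. Lama1, the laminin chain of the early basement membrane, fell from 6254 and 3939 reads in WT cells to 881 and 726 in Npac KO cells (log2 fold change -2.69, adjusted p = 0.00245 by edgeR). Lamb1, the chain that pairs with it, rose from 1306 and 1599 reads to 3932 and 3272 (log2 fold change 1.32, adjusted p = 0.00603 by edgeR). Sparc, a matrix protein secreted by parietal endoderm, had 4257 and 4834 reads in WT cells and 6982 and 7399 in Npac KO cells (log2 fold change 0.66, adjusted p = 0.0343 by edgeR). Sparc lies on chromosome 11, and with the median of that chromosome removed its log2 fold change was 0.19 and did not pass (adjusted p = 0.458 by edgeR), nor did it pass without KO1 or without KO2 (adjusted p = 0.275 and 0.188 by edgeR).

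Of 12 tested trophoblast genes, Cdh3, Esx1 and Fgfr2 passed as higher and Ets2 and Id2 as lower. Cdh3, the P-cadherin of placenta, had 292 and 419 reads in WT cells and 1101 and 1004 in Npac KO cells (log2 fold change 1.58, adjusted p = 0.00434 by edgeR), and 1.09 with the median of chromosome 8 removed. Esx1, an X-linked homeobox gene of the placenta, had 42 and 169 reads in WT cells and 432 and 457 in Npac KO cells (log2 fold change 2.12, adjusted p = 0.0239 by edgeR). Fgfr2, the FGF receptor of trophectoderm, had 18 and 22 reads in WT cells and 47 and 73 in Npac KO cells (adjusted p = 0.0488 by edgeR), but its listed span overlaps 71 other genes and its count is uncertain. Fgfr2 did not pass in DESeq2 (adjusted p = 0.0716), with chromosome medians removed (adjusted p = 0.0512 by edgeR) or without KO1 or KO2 (adjusted p = 0.176 and 0.356 by edgeR). Ets2, an ETS factor needed in trophoblast, fell from 1159 and 952 reads to 344 and 350 (log2 fold change -1.62, adjusted p = 0.00453 by edgeR). Id2, an inhibitor of bHLH factors, fell from 899 and 670 reads to 279 and 214 (log2 fold change -1.68, adjusted p = 0.00882 by edgeR).

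**Figure D4:**
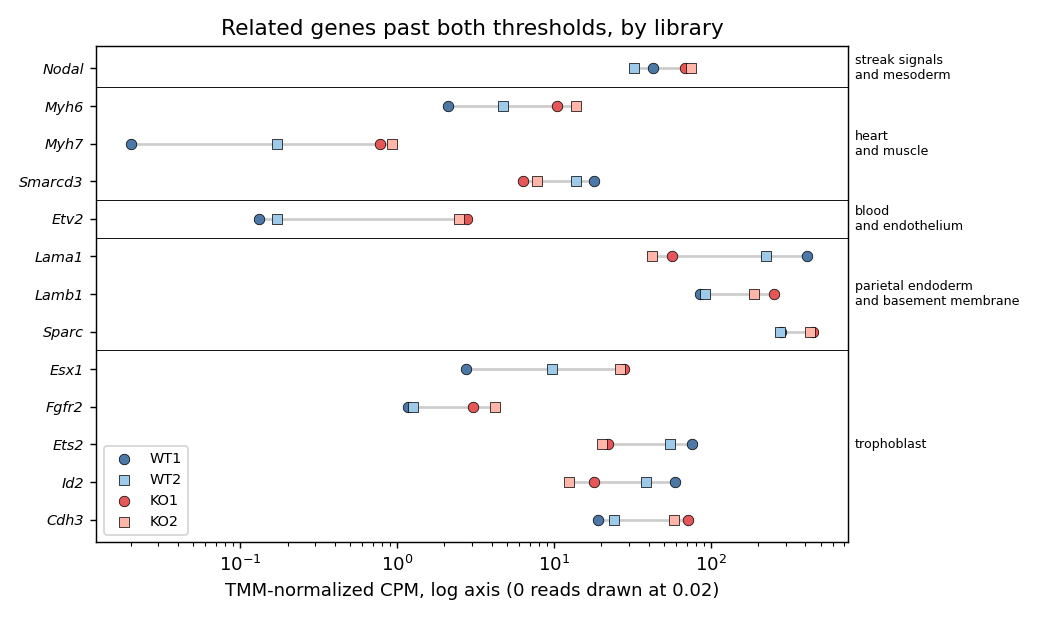
TMM-normalized CPM in the WT1, WT2, KO1 and KO2 libraries, on a log axis, of the 13 related genes that passed both thresholds, grouped by list; 0 reads are drawn at 0.02. Both KO points lie to the left of both WT points in Smarcd3, Lama1, Ets2 and Id2 and to the right of them in the other genes drawn.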

How the data were processed

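RNA-seq was performed on E14 cells as 150-bp paired-end reads. The submitters' processing notes name mm10, HISAT2 2.0.5 and featureCounts 1.5.0-p3, and the methods name another HISAT version. The authors deposited raw read counts per gene; they also deposited FPKM of the same reads, which were not used here. Only 2.83% of 52073 genes shared with GENCODE M21 (GRCm38) had the coordinates of that annotation, so positions of genes are given as deposited, on a build the sources leave unclear, and promoters on GRCm38.p6. Whether strand was used is not given in the sources used here.

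Tests used edgeR 4.0.16 under R 4.3.3 (TMM, filterByExpr, quasi-likelihood test), KO against WT; the study's methods name edgeR, Benjamini-Hochberg adjustment and the fold change limit. DESeq2 1.42.0 was an alternative. The test was checked on simulated data. The simulation gave every gene the same dispersion and changed only genes above a read limit. It therefore does not cover the scarcest lineage genes or the differences seen between libraries of a genotype. CPM were computed from counts and divided by the deposited gene length for CPM per kb. Standard errors are the log2 fold change over the root of the F statistic. A group with 3 reads or fewer in each library counted as at the floor. Intervals are 95% exact binomial intervals on summed reads and cover counting error only. Alternatives were DESeq2, upper-quartile normalization, no count filter, at least 10 reads in every library and a replicate block. Others were removal of each chromosome's median from each KO library and leaving out each library. With a KO library left out, the remaining one is assumed to vary like the WT pair. With a WT library left out, the remaining one is assumed to vary like the KO pair.

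All 43 lineage genes are named. Related genes are named if they passed both thresholds with a mean of at least 50 reads, at most 4 per list, and others were chosen after their values were seen. The genes and lists were chosen with earlier results of these data known. RT-qPCR data were not analysed here.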

Additional observations from a re-analysis of the deposited data

How the results depend on the processing

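The number of up-regulated lineage genes was 3 with at least 10 reads in every library, which removed Gsc and Hand2 from the test, and 8 with a replicate block; it lay between 1 and 14 with each library left out. The number of down-regulated lineage genes was 2 with no count filter and 2 with the replicate block, as Tfap2a was then called, and lay between 1 and 2 with each library left out. With at least 10 reads in every library the number of down-regulated lineage genes was 1. Sox7 was not tested there and Tfap2a was called (adjusted p = 0.0468 by edgeR). The median log2 fold change lay between 0.26 and 0.88 with each library left out. Of the related genes, 9 were down-regulated by DESeq2, 11 with no count filter and 12 with the replicate block, against 4 in the report, and with each library left out between 3 and 12 were down-regulated and between 4 and 20 up-regulated. The cause of these changes was not tested unless named. Sox7 and Tfap2c were called under all alternatives that could test them. The replicate numbers pair the libraries only by name. The deviations of equally numbered libraries correlated at 0.345 over all genes tested, and with the replicate block 3128 genes were higher and 2994 lower in Npac KO cells, against 1999 and 1946 without it. Mesp1, Cdx1 and Hand1 were called with the block and not without it.

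Genes that were not called changed the sign of their log2 fold change in several settings. These were Eomes (0.033) and Pecam1 (-0.057) with chromosome medians removed, Mesp2 (0.035) and Sox17 (0.0034) with the replicate block, Tal1 (0.0018) with upper-quartile normalization and Cxcr4 (-0.0028) with DESeq2. With each library left out the ranges were -0.54 to 0.16 in Eomes, -0.69 to 0.82 in Mesp2, -0.75 to 0.50 in Nkx2-5, -0.90 to 0.96 in Isl1, -0.98 to 1.94 in Msx1, -0.69 to 2.0 in Kdr, -0.34 to 0.30 in Tal1, -0.23 to 0.58 in Gata2, -0.27 to 0.94 in Foxa1, -0.95 to 1.39 in Sox17 and -0.15 to 0.14 in Cxcr4. Of the 10 genes that could not be tested, 5 had 3 reads or fewer in every library, and depth limits these.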
